A study of Mus musculus with 21 samples.

Results

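S100 proteins are small calcium sensors of vertebrates that carry a pair of EF-hand calcium-binding loops and mostly work as dimers. On binding calcium they expose a surface that docks onto partners such as annexins, myosin or membrane channels, and some are also released from the cell and bind receptors such as Ager, the receptor for advanced glycation end products. In the pancreas several of them, S100a4, S100a6, S100a10 and S100a11 among them, are known for high levels in ductal carcinoma. Described here are 10 S100 genes, S100a1, S100a4, S100a6, S100a10, S100a11, S100a13, S100a14, S100a16, S100b and S100g, which were taken by symbol from a table of 34478 genes.

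The RNA came from 6 primary murine pancreatic ductal adenocarcinoma (PDAC) cell lines, #3, #4, #6, #7, #9 and #10, in 4 states. Each line came from the tumor of a different mouse carrying Ptf1awt/Cre and Trp53loxP/loxP, in which Cre under Ptf1a removes Trp53 in the pancreas, and all 21 samples share these alleles. Parental cells (n = 6) had never met the drug, and resistant cells (n = 6) were grown in trametinib, an inhibitor of the kinase MEK, at 100 times the IC50 of their line. P5 (n = 3, lines #3, #7 and #9) and P12 (n = 6) cells were resistant cells passaged 5 and 12 times in drug-free medium. The sample descriptions of P5 in lines #7 and #9 give 12 passages, whereas the sample names and the methods of the study give 5, and these samples are called P5 here. From the genomes of lines #3 and #9, the study describes the resistant cells as the expansion of a single clone, whose variants P12 cells mostly kept. The genomes of the other lines were not sequenced. A resistant, P5 or P12 sample can thus stand for the cells selected in 1 line. The number of a line pairs its states, and the spread within a state is that between lines, with no repeat culture of a line in the same state.

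Of the genes, 8 lie on mouse chromosome 3, between S100a1 (chr3:90511034-90514392, minus strand, GRCm38, GENCODE M21) and S100a10 (chr3:93555080-93564643, plus strand). S100b lies on chromosome 10 (chr10:76253853-76261159, plus strand) and S100g on the X chromosome (chrX:162961992-162964599, minus strand). All are annotated as protein coding. S100a4 (chr3:90603771-90606045, plus strand) shares 302 of its 584 exon bases with Gm42674 on the same strand, which was listed at 2.38 to 75.2 normalized counts, and reads of the shared part cannot be told apart. S100a1 and S100a13 (chr3:90514435-90524581, plus strand) start back to back on opposite strands, and are shown because the levels of this pair went together across the samples. The 104 bases between their RefSeq starts (GRCm38.p6, chr3:90514331-90514434, plus strand) hold 58.7% G or C and 3 CpG.
S100a1 to S100a13: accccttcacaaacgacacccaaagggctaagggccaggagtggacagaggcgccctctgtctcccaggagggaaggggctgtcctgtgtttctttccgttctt

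The 250 bases before the RefSeq starts of S100a4 (chr3:90603520-90603769), S100a6 (chr3:90612644-90612893) and S100a11 (chr3:93520246-93520495), all on the plus strand of GRCm38.p6, are shown for the genes on which the comparisons below mostly turn. Capitals mark the letters TGANTCA, searched on both strands, where they read the same. With any base at N, they take in the letters bound by AP-1 but are looser than these. AP-1 is a dimer of Fos and Jun proteins that is known to act downstream of MEK and ERK.
S100a4: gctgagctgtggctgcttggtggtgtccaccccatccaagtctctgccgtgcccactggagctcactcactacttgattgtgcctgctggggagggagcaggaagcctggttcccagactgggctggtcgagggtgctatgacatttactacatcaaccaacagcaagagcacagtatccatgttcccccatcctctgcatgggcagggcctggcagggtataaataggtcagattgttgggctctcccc
S100a6: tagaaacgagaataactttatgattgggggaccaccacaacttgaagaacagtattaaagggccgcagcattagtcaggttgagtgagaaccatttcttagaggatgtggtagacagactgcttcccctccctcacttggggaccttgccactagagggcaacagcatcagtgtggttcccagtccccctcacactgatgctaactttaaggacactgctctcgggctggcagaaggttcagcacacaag
S100a11: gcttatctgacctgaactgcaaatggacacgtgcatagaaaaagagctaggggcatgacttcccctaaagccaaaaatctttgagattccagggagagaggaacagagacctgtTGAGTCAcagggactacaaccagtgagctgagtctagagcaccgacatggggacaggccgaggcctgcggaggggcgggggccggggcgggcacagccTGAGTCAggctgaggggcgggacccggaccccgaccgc
The S100a11 stretch held these letters 2 times, with their first base 136 and 38 bases before the start, and those of S100a4 and S100a6 did not hold them. RefSeq windows reaching from 250 bases before to 50 bases after a start were matched for 8 of the genes, all but S100a10 and S100a14. Among their 9 windows 2 held the letters, that of S100a11 and 1 of S100a16, there as TGAATCA, against 7.81% of all 32851 such windows. A match of letters is a description of the sequence and not of binding.

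The values are normalized counts, that is reads per gene scaled to a common depth by the authors. Steps between low values put the depth at 24.1 to 42.6 M reads a sample, at which 3 reads, taken as the floor of detection, are worth 2.31 to 4.06 normalized counts. All 8 genes of a list of direct outputs of ERK signalling, such as Dusp6 and Spry4, were called lower in resistant than in parental cells and higher in P12 than in resistant cells, and none in P12 against parental cells (limma on log2 values; 0 also with the cell line as a block), which checks the drug labels. Parental cells of line #9 held the lowest parental value of Krt8, Krt18, Krt19, Cdh1, Cldn4, Cldn7, Esrp1 and Ocln. For Cdh1 they had 816 normalized counts against a parental median of 30049. Sox9 went the other way, with its highest parental value in line #9, 2421 against a median of 1541. Between resistant and parental cells, 4 of the 9 tested epithelial or ductal markers were called lower (Sox9, Cldn4, Cldn7 and Ocln, or 7 with the cell line as a block). Epcam was listed at or near 0. Of 10 mesenchymal markers 2 were called higher (Cdh2 and Sparc), or 3 with the block, and 0 lower. The medians of Vim (90916 in parental, 53913 in resistant cells), Twist1 (337 and 91.3) and Zeb1 (1671 and 1465) were lower in resistant cells. Those of the other mesenchymal markers were higher. Of other cell types, 2 leukocyte, 3 endothelial, 3 Schwann or glial and 1 acinar marker were tested and 0 were called in any comparison, with 1 leukocyte marker lower in resistant cells and 1 endothelial marker higher in P12 than in resistant cells with the cell line as a block. Their summed levels reached 71.5 normalized counts for leukocyte, 886 for endothelial, 263 for Schwann or glial and 931 for acinar markers. In RNA of whole cultures, fewer cells of a type and less RNA per cell cannot be told apart.

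The family's RNA was dominated by S100a6, calcyclin, which made up 47.0% to 78.2% of the summed normalized counts of the 10 genes in every sample. The 10 genes together took 0.319% ± 0.0619 (SD, n = 6) of all normalized counts in parental cells, 0.154% ± 0.0875 (SD, n = 6) in resistant cells, 0.223% ± 0.162 (SD, n = 3) in P5 and 0.250% ± 0.109 (SD, n = 6) in P12. Compared per 1000 bases of the median coding transcript, the parental median level was 102319 normalized counts for S100a6, 39685 for S100a11 and 14048 for S100a10. It was 3144 for S100a4, 2440 for S100a16, 1673 for S100a1 and 1633 for S100a13. S100a14 at 115, S100g at 68.4 and S100b at 2.42 stood lowest on this scale. S100a6, S100a11 and S100a10 did not overlap with one another in the parental samples, whereas the ranges of S100a4, S100a16, S100a1 and S100a13 did, and so did those of S100a14, S100g and S100b.

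**Figure D1:**
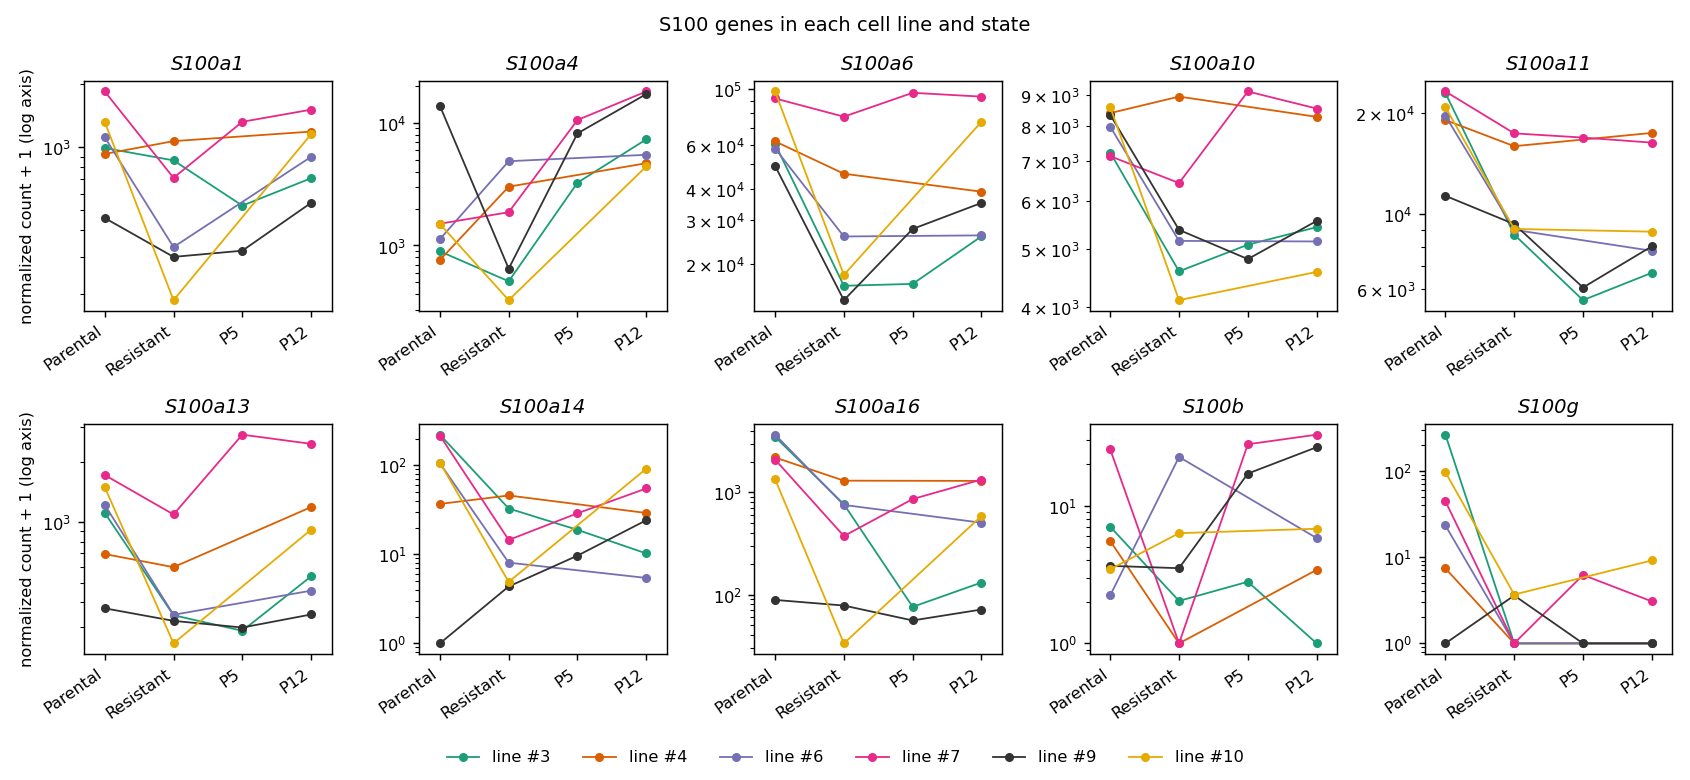
Normalized counts plus 1 of the 10 S100 genes (log axis) in parental, resistant, P5 and P12 cells, with 1 line joining the samples of each cell line and lines #4, #6 and #10 running past P5, which they lack. S100a6 lies highest in every state, the parental sample of line #9 lies apart from the other parental samples for S100a4, S100a11, S100a14 and S100a16, and S100g is at or near 0 outside the parental state.

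The comparison of resistant with parental cells asks what continued MEK inhibition went with in these lines. All 10 S100 genes had a negative log2 fold change, from -0.48 for S100a4 to -3.97 for S100g, with a median of -1.14 against -0.00 over the 19300 genes tested. None passed the test at an adjusted p under 0.01 and a log2 fold change beyond 1 (limma, all 4 states in 1 fit), where 2.73% of all tested genes were called lower and 2.57% higher. At an unadjusted p under 0.05 there were 5 of the 10, against 29.2% of all tested genes. With the cell line as a block, S100a6 and S100g were called lower, 2 of 10 against 5.60% of all tested genes, and 7 of 10 had an unadjusted p under 0.05 against 37.8%. By direction, 4.85% of all tested genes were called higher with the block. All 10 passed the filter on low values, at least 10 normalized counts in at least 3 samples, but S100g passed it through parental samples alone, so that its difference was in part set by the filter.

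Within lines, the number of the 10 genes that were lower in resistant cells was 10 in line #3, 6 in #4, 8 in #6, 9 in #7, 8 in #9 and 9 in #10, where 47.7% to 51.1% of all tested genes were lower. The median difference over the 10 genes lay between -2.52 in line #10 and -0.24 in lines #4 and #9 on the log2 scale. S100a6, S100a11, S100a13 and S100a16 were lower in 6 of 6 lines, a pattern that 9.49% of all tested genes had, while 8.99% were higher in every line.

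**Figure D2:**
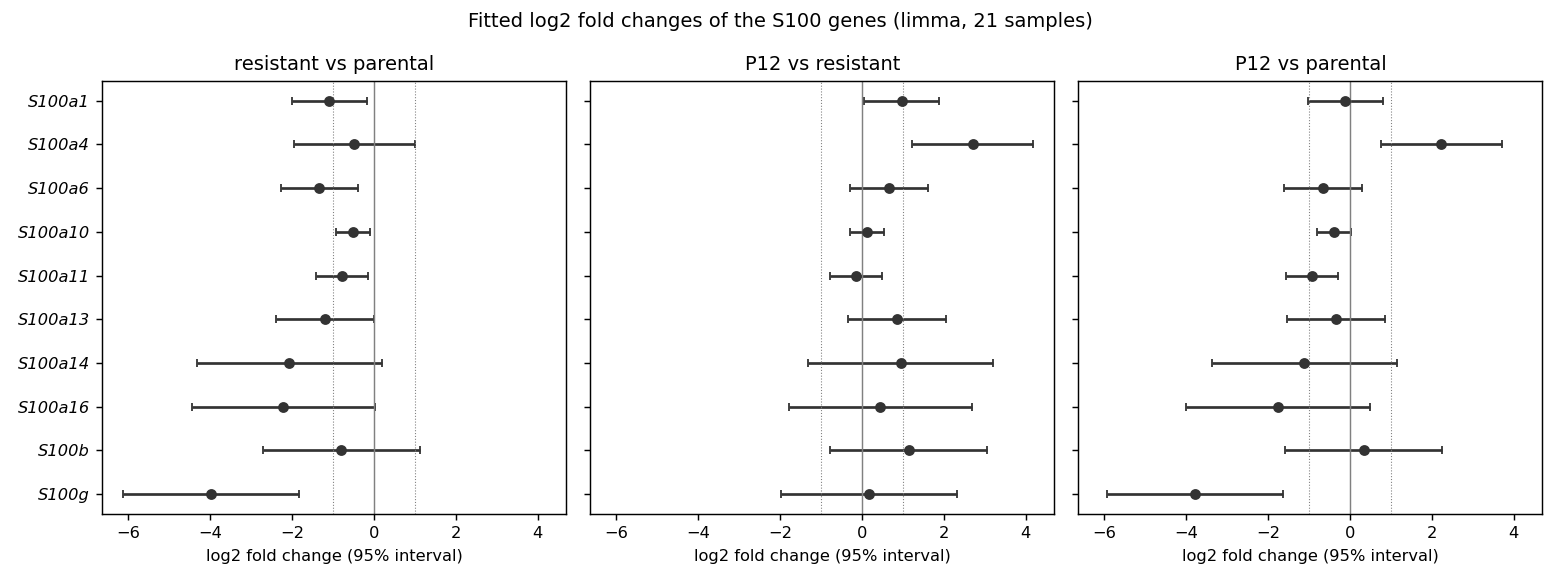
Log2 fold changes of the 10 S100 genes (points) with their 95% confidence intervals (bars) from limma for resistant against parental, P12 against resistant and P12 against parental cells, with a solid vertical line at 0 and dotted lines at the fold threshold. All 10 points lie below 0 for resistant against parental cells, and S100a4 lies highest for P12 against resistant cells, at 2.71.

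S100a6, S100a10 and S100a11 are binding partners of annexins. S100a6 is also known for binding Cacybp, a ubiquitin ligase adaptor. In parental cells S100a6 had 49330, 61136 and 98032 normalized counts (lowest, median, highest), in resistant cells 14278, 21867 and 77686, and in P12 25734, 36953 and 93468. The resistant samples of lines #3, #6, #9 and #10, at 25708 or less, and of #4, at 45883, lay below every parental sample, while that of line #7 lay among them. S100a6 was 2.51-fold lower in resistant than in parental cells (log2 fold change -1.33, 95% interval -2.28 to -0.38, limma adjusted p = 0.053). With the cell line as a block the same difference had an adjusted p of 0.0031 in limma and passed the test. Without line #7 it also passed without the block (log2 fold change -1.54, adjusted p = 0.0066), and with the block it passed without line #4 or #7 and missed 0.01 without #3, #6, #9 or #10 (limma adjusted p up to 0.0187). P12 cells had 0.67 more than resistant and 0.66 less than parental cells on the log2 scale (limma adjusted p = 0.46 and 0.50), so that their mean level lay between the others and neither difference passed the test. With the block the 95% intervals were 0.08 to 1.26 and -1.25 to -0.07 and left out 0, with 5 of 6 lines higher and 5 of 6 lower (limma adjusted p = 0.13 and 0.17). P5 cells had 16593 normalized counts in line #3, 96830 in #7 and 27552 in #9, each above its resistant sample.

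S100a11, which docks onto annexins during membrane repair, had 11356, 20279 and 23248 normalized counts in parental cells, 8702, 9198 and 17437 in resistant cells and 6694, 8453 and 17489 in P12. Parental cells of line #9 held the lowest parental value, and the other 5 parental samples, at 19105 or more, lay above all 12 resistant and P12 samples. The log2 fold change was -0.78 in resistant against parental cells (limma adjusted p = 0.087, 0.0079 with the cell line as a block, where the change stayed under the fold threshold). Unlike the levels of S100a6, those of S100a11 had a negative difference between P12 and resistant cells, -0.13 (limma adjusted p = 0.87), with 5 of 6 lines lower in P12. P12 differed from parental cells by -0.91 on the log2 scale (limma adjusted p = 0.16, 0.018 with the block), with lower values in 6 of 6 lines, as 6.96% of all tested genes had. The 3 P5 samples of S100a11, at 5547 in line #3, 16938 in #7 and 6050 in #9, were each below their parental and their resistant sample.

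S100a10, the partner of annexin A2 that is known for having lost calcium binding, varied least between parental lines, from 7124 to 8597 normalized counts with a median of 8162. In resistant cells it had 4107, 5264 and 8949 and in P12 4576, 5496 and 8549. Resistant cells of line #4 held the highest of these values, and the other 5 resistant samples, at 6430 or less, lay below every parental sample. The log2 fold change in resistant cells was -0.51 (limma adjusted p = 0.094, 0.025 with the block), and in P12 it was 0.12 against resistant and -0.38 against parental cells (limma adjusted p = 0.80 and 0.37).

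S100a4, known as metastasin and as a marker of fibroblasts and mesenchymal cells, binds non-muscle myosin heavy chain Myh9. Its parental samples had 761, 1311 and 13712 normalized counts, and resistant samples 358, 1256 and 4856. The highest parental value was that of line #9, where the other parental samples reached 1503, and resistant cells were higher than parental cells in lines #4, #6 and #7 and lower in #3, #9 and #10. The log2 fold change was -0.48 (95% interval -1.96 to 1.00, limma adjusted p = 0.71), and without line #9 it turned to 0.31.

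After withdrawal S100a4 had 4407, 6396 and 17956 normalized counts in P12. All 6 P12 samples were higher than the resistant and than the parental sample of their line, a pattern that 7.77% and 6.46% of all tested genes had. The lowest P12 sample, of line #10, lay just below the highest resistant sample, of line #6, so that the groups overlapped. Against resistant cells the log2 fold change was 2.71 (6.54-fold, 95% interval 1.23 to 4.19, limma adjusted p = 0.026), within lines from 0.17 in line #6 to 4.72 in #9. With the cell line as a block the adjusted p was 0.013 in limma, and without line #6 as well it was 0.0097, past the threshold of 0.01. With the block and any other single line left out it missed 0.01 (limma adjusted p up to 0.076). Without the block it missed 0.01 whichever line was left out (limma adjusted p = 0.027 to 0.11). Against parental cells the log2 fold change was 2.23 (limma adjusted p = 0.14, 0.059 with the block), from 0.32 in line #9 to 3.58 in #7.
P5 cells of S100a4 had 3247 normalized counts in line #3, 10517 in #7 and 8185 in #9, each above its resistant sample and below its P12 sample. The log2 fold change of P5 against resistant cells was 2.43 (limma adjusted p = 0.17). S100a4 is a textbook mesenchymal marker, and the 10 mesenchymal markers tested had a median log2 fold change of 1.52 in resistant against parental cells and of 0.14 in P12 against resistant cells.

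S100a1 and S100a13 start head to head. S100a1 is known from heart and skeletal muscle, where it acts on calcium release and uptake, and S100a13 from the export of Fgf1 and Il1a, which lack a signal peptide. S100a1 had 458, 1049 and 1835 normalized counts in parental cells, 185, 522 and 1064 in resistant cells and 541, 1023 and 1503 in P12. S100a13 had 371, 1167 and 1720 in parental cells, 248, 343 and 1093 in resistant cells and 346, 727 and 2461 in P12. For both genes parental cells of line #9 were lowest and those of line #7 highest, and the ranges of the states overlapped. Resistant cells had a log2 fold change of -1.09 for S100a1 (5 of 6 lines lower, limma adjusted p = 0.10) and of -1.20 for S100a13 (6 of 6 lines lower, limma adjusted p = 0.17, 0.017 with the block). P12 against resistant cells gave 0.98 for S100a1 and 0.87 for S100a13 (limma adjusted p = 0.22 and 0.44), with S100a13 higher in 6 of 6 lines, as 7.77% of all tested genes were, while 8.2% were lower in every line. Against parental cells P12 differed by -0.11 (95% interval -1.03 to 0.80) for S100a1 and by -0.33 (-1.53 to 0.87) for S100a13, neither of which passed the test. The log2 values of the pair had a Pearson r of 0.837 over the 21 samples, which share lines and scaling, the second highest among all pairs of the 10 genes after S100a6 and S100a13 at 0.875.

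S100a14 and S100a16 are known mainly from epithelial cells. S100a16 had 87.7, 2145 and 3672 normalized counts in parental cells, 32.3, 563 and 1302 in resistant cells, and 70.4, 545 and 1336 in P12. Parental cells of line #9 stood at the low end with all its other states, at 54.8 to 87.7, whereas the other 5 parental samples, at 1346 or more, lay above every resistant and P12 sample. The log2 fold change was -2.21 in resistant against parental cells (limma adjusted p = 0.18, 0.036 with the block), and within lines it lay between -5.34 in line #10 and -0.18 in #9. P12 cells were lower than parental cells in 6 of 6 lines (log2 fold change -1.75, limma adjusted p = 0.44). Between P12 and resistant cells the log2 fold change was 0.45 (limma adjusted p = 0.87) with 2 lines higher and 4 lower, of which line #10 was higher by 4.14 and, left out, turned the value to -0.28. S100a14 was rarer, with 0, 106 and 220.1 normalized counts in parental, 3.36, 10.3 and 44.9 in resistant and 4.44, 25.7 and 90.8 in P12 cells. The 0 was that of line #9. Its log2 fold change was -2.06 in resistant against parental cells (95% interval -4.32 to 0.20, limma adjusted p = 0.21), with 4 of 6 lines lower. Without line #9 the log2 fold change was -2.90 and did not pass the test either (limma adjusted p = 0.022). The summed level of the epithelial markers was 18761, 216948 and 254069 normalized counts in parental cells and 1327, 59433 and 209904 in resistant cells. In P12 cells it was 3909, 52678 and 201301. The median of this sum was thus lower in P12 than in resistant cells, as was that of S100a16, whereas the median of S100a14 was higher. The sum does not stand for each marker. The median of Krt19 was 28692 in resistant and 11953 in P12 cells, and those of Cldn4 and Esrp1 were lower too. Those of the other tested epithelial markers were higher in P12, such as Cdh1 (58.4 and 2162) and Sox9 (244 and 2923). The median log2 fold change of the 9 tested markers was 0.65, and only Sox9 was called, higher. The part of the epithelial markers in the differences of S100a14 and S100a16 was not tested.

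S100b, the glial S100 protein and a ligand of Ager, was close to the floor. It had 1.23, 3.59 and 24.6 normalized counts in parental, 0, 1.77 and 21.6 in resistant and 0, 5.30 and 31.7 in P12 cells, and 4 of the 6 resistant samples were at or under the floor of 3 reads. Line #7 was highest in parental, P5 and P12 cells and at 0 in resistant cells, and line #6 was highest in resistant cells. The log2 fold changes were -0.80 in resistant against parental and 1.14 in P12 against resistant cells (limma adjusted p = 0.62 and 0.55), and a difference was not detectable at these levels. Of the glial markers that S100b is used with, Sox10 did not pass the filter.

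S100g, the intestinal calcium carrier whose gene is known to be controlled by vitamin D, was seen mainly in parental cells. The parental samples had 261 normalized counts in line #3, 6.40 in #4, 22.3 in #6, 43.4 in #7, 0 in #9 and 95.4 in #10. Resistant cells were at 0 in 4 lines, at 2.59 in #9 and at 2.68 in #10, and P12 cells were at 0 in 4 lines, at 2.07 in #7 and at 8.14 in #10. Apart from line #9, every parental sample lay above its resistant and its P12 sample. On the log2 scale with 1 added, resistant cells differed from parental cells by -3.97 (95% interval -6.11 to -1.82, limma adjusted p = 0.014, 0.0061 with the block), a size that depends on the added value and came to -4.51 with 0.5 and -2.23 with 8. S100g entered the tests through the 4 parental samples at 10 normalized counts or more alone, so that its differences from parental cells, in resistant, P5 and P12 cells, were in part set by the filter. With this limit it passed the test with the block, and also without line #9 (log2 fold change -5.13, limma adjusted p = 0.0017). With the block and any other single line left out, the adjusted p was 0.0174 to 0.0289 in limma. P12 cells differed from parental cells by -3.79 (limma adjusted p = 0.095, 0.032 with the block), and passed the test with the block once line #9 was left out (adjusted p = 0.0072 in limma).

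Drug withdrawal was read from P12 against resistant and against parental cells. Of the 10 genes 9 had a positive log2 fold change in P12 against resistant cells, with a median of 0.77 against 0.02 over all tested genes, and S100a11 had the negative one. None was called (limma; 1.28% of all tested genes were called higher and 0.85% lower), 0 with the cell line as a block (2.52% higher, 2.0% lower), and at an unadjusted p under 0.05 there were 2, S100a1 and S100a4, against 19.8%. With the block these were 4, S100a1, S100a4, S100a6 and S100a13, against 27.2%. Against parental cells 8 of 10 log2 fold changes were negative in P12, with a median of -0.52 against 0.03, and the positive ones were those of S100a4 and S100b. Again none was called (limma; 0.0259% of all tested genes higher and 0.0881% lower), 0 with the block (0.212% and 0.311%), and 3 had an unadjusted p under 0.05, S100a4, S100a11 and S100g, against 15.3%. With the block S100a6, S100a10 and S100a16 joined them, 6 of 10 against 23.8%. S100g, in both of these counts, passed the filter through parental samples alone, so that its place there was in part set by the filter. P12 against resistant cells shares its resistant samples with the comparison of resistant against parental cells, so a low resistant value enters both. P12 against parental cells shares only the parental samples with that comparison, so a high parental value enters both.

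The lines differed in the direction of the P12 values. In line #7 and in line #10, 9 of 10 genes were higher in P12 than in resistant cells, with median log2 differences of 1.39 and 1.96, and in line #9 7 were. In lines #3, #4 and #6 the number was 4, 5 and 4, with medians of -0.14, 0.07 and -0.00. S100a6 of line #10 went from 98032 normalized counts in parental to 18027 in resistant and 74115 in P12 cells, whereas in line #6 it went from 57907 to 25708 and 25968. In line #7 resistant cells had kept 77686 against 91921 in the parental sample, and P12 had 93468.

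**Figure D3:**
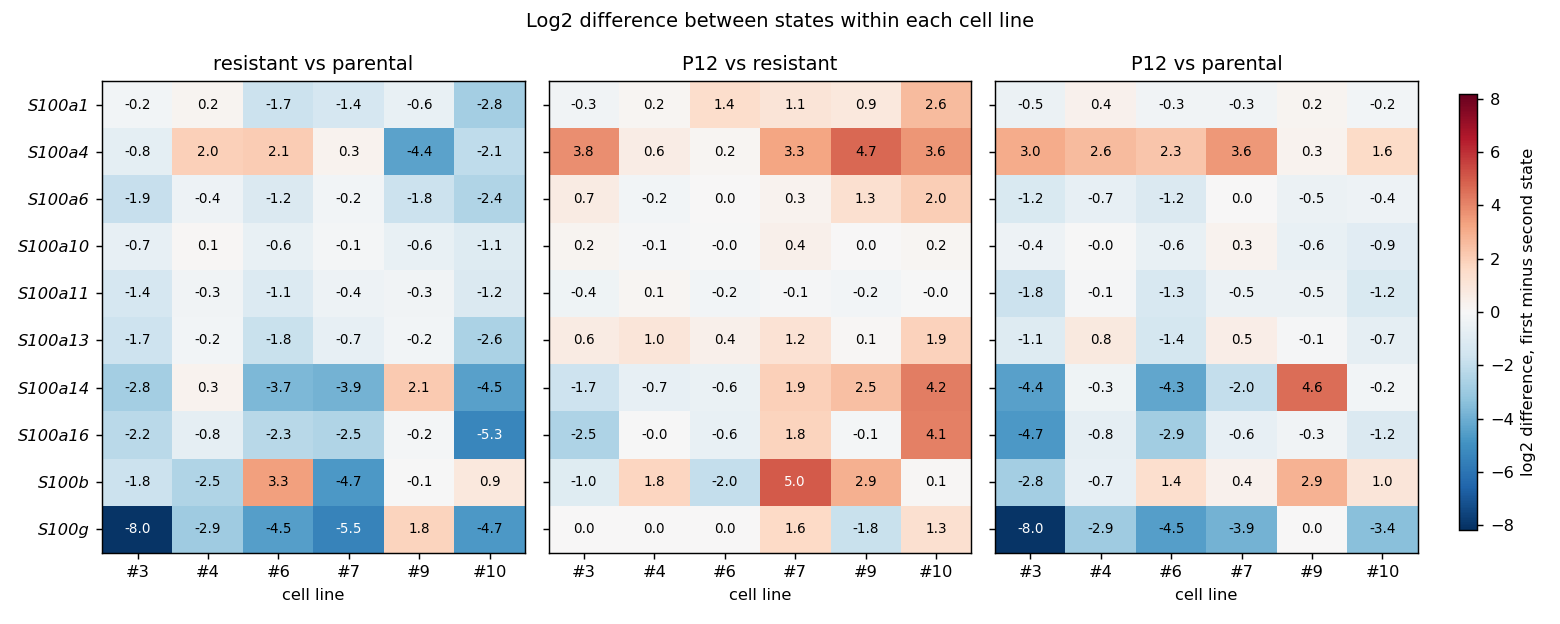
Log2 differences within each cell line (columns) for the 10 S100 genes (rows), for resistant against parental, P12 against resistant and P12 against parental cells, with red for higher and blue for lower in the first-named state. Line #3 has lower values of all 10 genes in resistant cells, lines #7 and #10 have higher values of 9 genes in P12 than in resistant cells, and S100a4 is higher in P12 in every line in both comparisons.

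P5 was available for 3 lines. Against resistant cells none of the 10 genes was called (limma; 0.29% of all tested genes higher, 0.0881% lower), 0 with the block (0.435% and 0.176%), and 1, S100a4, had an unadjusted p under 0.05 against 15.4% (1 with the block against 15.8%). In line #7, 9 of 10 genes were higher in P5 than in resistant cells, whereas in #3 the number was 4 and in #9 it was 5. Against parental cells none was called (limma; 0.00518% higher, 0.0207% lower), 0 with the block at the same shares, and 4 had an unadjusted p under 0.05 against 10.4%, of which S100a11, S100a16 and S100g had negative values (-1.20, -3.17 and -3.71 on the log2 scale) and S100a4 a positive one (1.95). This fit sets 3 lines against 6, and the value of S100a16 ranged from -4.29 to -1.49 with 1 line left out, with or without the block. With the block there were again 4, against 14.4%, with S100a6 (-0.91, unadjusted p = 0.022 in limma) in place of S100a4 (1.67, unadjusted p = 0.066 in limma). The place of S100g in both counts was in part set by the filter, which it passed through parental samples alone. For S100a13 the P5 samples had 286 normalized counts in line #3, 2735 in #7 and 297 in #9, so that line #7 alone lay above its resistant sample at 1093. P5 and P12 gave 0 calls among the 10 genes and among all tested genes (0.00%), 0 with the block, and 0 of the 10 had an unadjusted p under 0.05 against 0.674% (0 with the block against 0.725%).

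The share of the sum of squares of the log2 values that lay between cell lines and between states was set out for each gene over the 18 parental, resistant and P12 samples, as a description. For S100a16 and S100a13 the larger part lay between lines, 52.1% and 50.4%, against 22.1% and 28.0% between states. This order rested on single lines, since without line #9 S100a16 had 22.0% between lines and 41.7% between states, and without line #7 S100a13 had 24.9% and 43.8%, and it turned for S100a13 without #9 as well. S100a4 and S100g had the reverse, with 47.7% and 52.6% between states and 17.2% and 19.4% between lines. The share of S100g between states was in part set by the filter, which it passed through parental samples alone. S100a11 had 45.2% between states and 36.8% between lines, and S100a6 38.4% and 40.7%, which became 60.3% and 18.1% without line #7. In S100b 69.3% and in S100a14 50.2% lay in neither, and without line #9 S100a14 had 50.1% between states and 10.8% between lines. Over all tested genes the median share was 35.8% between lines and 19.8% between states.

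**Figure D4:**
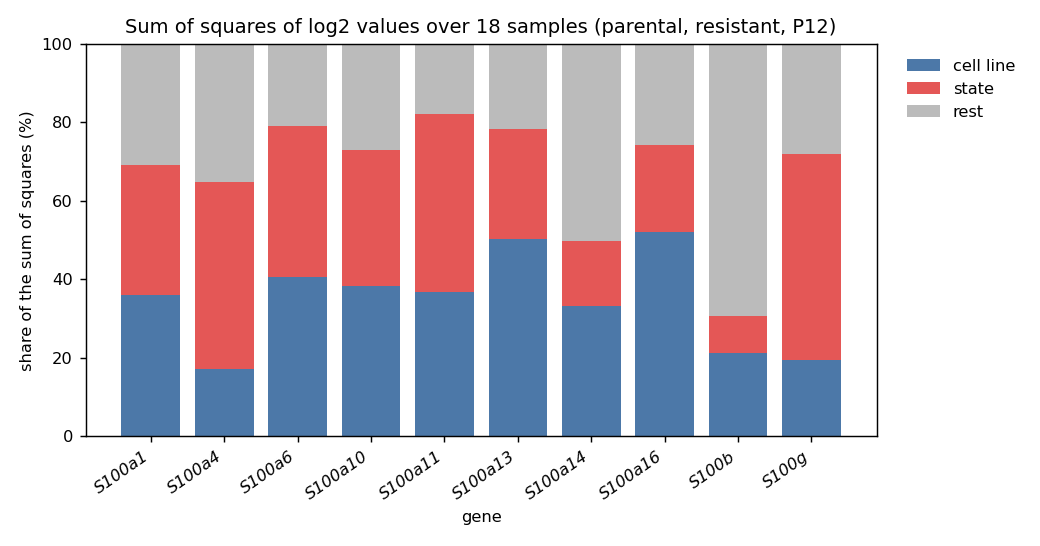
Percent of the sum of squares of log2(normalized count + 1) between cell lines, between states and in neither, for each of the 10 S100 genes over the 18 parental, resistant and P12 samples, with bars that start at 0. S100g and S100a4 have the largest shares between states, 52.6% (in part set by the filter) and 47.7%, and S100b has 69.3% in neither.

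The genes with the most similar pattern over the 21 samples, by Pearson r of the log2 values among all tested genes, were named for each S100 gene, as a description. For S100a6 they were Ugdh (r = 0.951) and Mindy1 (0.937), for S100a16 Palmd (0.934) and Gm42892 (0.907), for S100a13 Fkbp1a (0.933) and Nlrc4 (0.879), and for S100g Ihh (0.929) and Suox (0.913). S100a1 went with Ldhd (0.918) and Gsta4 (0.873), S100a11 with Golim4 (0.910) and Sh3glb1 (0.888), and S100a14 with Gm43775 (0.847) and Rap1gapos (0.812). For S100a10 the second of the pair was S100a11 (0.802), after Bckdk (0.813). S100a4 went with Arntl (0.829) and Asgr1 (0.813), and S100b had the lowest values, 0.754 for Gm42872 and 0.717 for Lif. Among the 10 genes themselves S100a4 had negative r to S100g (-0.42), S100a11 (-0.25), S100a14 (-0.22) and S100a16 (-0.18). Its r to the others was positive, from 0.13 (S100a1) to 0.38 (S100b). S100b likewise had low r to the others, from -0.0013 (S100a10) to 0.38 (S100a4). All samples share lines and scaling, and 21 samples of 6 lines are not independent points.

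Of 17 partners and receptors of S100 proteins 15 were tested, all but Il1a and Trpv6, and 1 was called lower in resistant than in parental cells, 0 higher. This was Fgf1, the growth factor that S100a13 helps to export, with a mean of 2174 normalized counts in parental and 57.6 in resistant cells (log2 fold change -4.85, limma adjusted p = 0.0040). In P12 cells Fgf1 had a mean of 1219 normalized counts, and its log2 fold change of 4.60 against resistant cells passed the test only with the block (limma adjusted p = 0.011, 0.0011 with the block). S100a6 was called with the block, and its partner Cacybp had a log2 fold change of -0.15 (limma adjusted p = 0.78). Of the 5 annexins on the list 0 were called, with or without the block. The log2 fold change was -0.94 for Anxa5 (6 of 6 lines lower, limma adjusted p = 0.046, 0.020 with the block) and -0.88 for Anxa2 (5 of 6 lines lower, limma adjusted p = 0.077, 0.022 with the block). Anxa11 had -0.63, Anxa6 0.74 and Anxa1 1.44 (limma adjusted p = 0.32, 0.37 and 0.17). In the other comparisons 0 of the 15 were called in limma, and with the block 0 except Fgf1. The median log2 fold change of the 15 partners in resistant against parental cells was -0.15, compared with -1.14 for the 10 S100 genes.

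Of 7 other S100 genes, 6 were in the table and 3 passed the filter. S100a5, which lies between S100a4 and S100a6 (chr3:90608523-90611780), was called lower in resistant than in parental cells. It was at 0 in all 6 resistant samples, with a parental mean of 7.22 normalized counts, at least 2.14-fold higher than the mean floor over the resistant samples (limma adjusted p = 0.0013). Of the parental samples 2 were themselves at or under the floor of 3 reads, line #3 at 2.99 and line #6 at 1.21 normalized counts. S100a5 passed the filter through the parental, P5 and P12 samples of line #9 alone, at 12.4, 14.7 and 10.3 normalized counts, so that its difference was in part set by the filter. Without line #9, with the same genes tested, the log2 fold change went from -2.80 to -2.61 and still passed (limma adjusted p = 0.0032), and without line #4 it missed the threshold (limma adjusted p = 0.012). In P12 it was above 0 in 6 of 6 samples, of which 4 were at or under the floor of 3 reads, and the difference from resistant cells did not pass the test (limma adjusted p = 0.030). S100a7a, psoriasin, had 122, 636 and 1561 normalized counts in parental cells and 3.29, 23.8 and 1595 in resistant cells, where line #7 held the highest value of both (log2 fold change -3.86, limma adjusted p = 0.068, 0.0032 with the block, which passed the test). S100a3 had a log2 fold change of 0.69 (limma adjusted p = 0.53), and S100a8, S100a9 and S100z did not pass the filter. In the stretch of chromosome 3 from S100a1 to S100a10, 113 further genes are annotated, of which 69 were in the table and 20 were tested. Besides S100a5 only Ivl, involucrin, was called there in resistant against parental cells, lower, and Ivl was the only one called in P12 against resistant cells, higher (limma; 5 lower and 3 higher with the block). The median log2 fold change of these 20 neighbours was -0.77 in resistant against parental and 0.92 in P12 against resistant cells.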

How the data were processed

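RNA-seq libraries (TruSeq Stranded mRNA) of 21 samples were analysed. The authors deposited 1 table of normalized counts, a signal value: per the labels and the methods, Skewer (0.1.116 or 0.2.2) trimmed the reads, Salmon 0.12 counted them over transcripts (build mm10), TXImport 1.6 gave gene sums and DESeq2 1.18 the scaling. Raw counts were not used here. Low values lay on steps of 1 read (tolerance 0.05) in 57.8% to 73.8% of cases, so whole reads were not recovered and no count test was run. Depth was estimated from the steps at 24.1 to 42.6 M reads, and floors cover counting error only.

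Values were analysed as log2(normalized count + 1) with limma 3.58.1 (lmFit, eBayes with trend, R 4.3.3) over the 19300 genes with at least 10 in at least 3 samples, all 4 states in 1 fit, with Benjamini-Hochberg adjustment over all of them. A gene was called at an adjusted p under 0.01 and a log2 fold change beyond 1, the thresholds of the study. Fold changes on this scale understate those of low genes. The script was tested on simulated data.

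The 10 genes and all lists were chosen with earlier results of these data known. Named besides the 10 genes were other S100 genes that passed the filter, called partners and partners of called genes, called genes of the chromosome 3 stretch, and the 2 genes most alike to each by Pearson r. The line number pairs the states by design: deviations from the state means had a mean correlation within lines of 0.241 (parental with resistant), 0.457 (resistant with P12) and 0.316 (P12 with parental), against -0.05, -0.09 and -0.06 between different lines. Alternatives were other pseudocounts, filters, scaling, the cell line as a block, each line left out and fits of the compared states alone. The study names more than 1 sequencer without assigning samples, so within-batch values could not be had. A further allele that all samples share is not reported here.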

Additional observations from a re-analysis of the deposited data

Results flagged for a closer look

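Among 30 groups of 6 samples tested on the log2 scale for a sample far from the others by Dixon's criterion, which chance meets in about 1 in 20 groups, 4 stood out, each of them parental cells of line #9. S100a4 had 13712 normalized counts there, against 761 to 1503 in the other parental samples. S100a11 had 11356 against 19105 to 23248, S100a16 had 87.7 against 1346 to 3672, and S100a14 was at 0 against 35.9 to 220.1.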

How the results depend on the processing

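The number of the 10 S100 genes called was 0 in all 6 comparisons and stayed 0 with pseudocounts of 0.5 or 8, with no filter or a mean of at least 100 (which left 7 of the 10 genes), with upper quartile rescaling, without the trend, and with the compared states alone, with or without the block. With the cell line as a block it was 2 in resistant against parental cells, and the block changed no other call among the 10 genes. Leaving out 1 line gave 0 to 1 in that comparison, with or without the block; with the block it also gave 0 to 1 in P12 against resistant and in P12 against parental cells. At an adjusted p under 0.05 it was 1 in resistant against parental (S100g) and 1 in P12 against resistant cells (S100a4). Of 1332 recomputed log2 fold changes, 1287 kept direction and side of the threshold, 11 passed it and 34 turned sign. S100a10 in P5 against P12 turned to 0.0076 with rescaling and 0.012 with the block. The other turns came from leaving out 1 line. Without the block the ranges for P5 against resistant cells were -0.11 to 0.66 for S100a1, -0.030 to 0.79 for S100a6, -0.13 to 0.28 for S100a10, -0.28 to 1.01 for S100a13 and -0.74 to 0.94 for S100g. For P5 against P12 they were -0.45 to 0.20 for S100a4, -0.78 to 0.12 for S100a6, -0.20 to 0.14 for S100a10, -1.09 to 0.10 for S100a13 and -0.64 to 0.55 for S100g. They were -0.997 to 0.31 for S100a4 in resistant against parental, -0.28 to 1.05 for S100a16 and -0.11 to 0.59 for S100g in P12 against resistant, and -0.16 to 0.98 for S100b in P12 against parental cells. With the block the values that turned were 0.31 for S100a4 in resistant against parental, -0.28 for S100a16, -0.11 and -0.045 for S100g in P12 against resistant, -0.16 for S100b in P12 against parental, -0.056 for S100a10, 0.72 for S100a16 and -0.46 for S100g in P5 against resistant, and 0.057, 0.020 and 0.15 for S100a10, 0.0085 for S100a13 and -0.35 for S100g in P5 against P12. The cause of these turns was not tested. Of 160 recomputed shares of the sum of squares, 156 moved by less than their jackknife SD over lines. That SD is computed from the shares with 1 line left out, so these could hardly move beyond it. The count is therefore no measure of stability. The recomputed share between lines ran from 18.1% to 53.3% for S100a6, from 22.0% to 64.4% for S100a16 and from 13.8% to 18.3% for S100a4. The share between states ran from 11.1% to 50.1% for S100a14. Over all tested genes the calls were 1023 in resistant against parental cells (2017 with the block, 456 to 1239 without 1 line, 2190 at 0.05), 412 in P12 against resistant (872, 132 to 459, 947, and 93 with the compared states alone), 22 in P12 against parental (101, 4 to 68, 54 higher and 62 lower, 12 with the states alone, and 5 with a mean of at least 100), 73 in P5 against resistant (118, 23 to 48, 376, and 14 with the states alone) and 5 in P5 against parental cells (5, 1 to 5, 9, and 1 with the states alone). With the compared states alone and the block they were 722, 291, 3, 0 and 0 in the same order, and in the 3 lines with P5 alone, with the block, 0 in each comparison with P5; there limma gave an unadjusted p under 0.05 to 1864 genes in P5 against resistant and 1248 in P5 against parental cells.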
